A study of Rattus norvegicus with 36 samples.

Results

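The 10 genes described here encode glycoproteins and small proteoglycans of the extracellular matrix, with matrix-associated regulators: Fn1, Thbs4, Tnc, Fbln2, Dcn, Lum, Bgn, Mgp, Ccn1 and Spp1. They were followed in the dorsal root ganglia of rats, where the cell bodies of sensory neurons lie, after the L5 spinal nerve had been tied off, which models neuropathic pain. Every probe set of the Affymetrix RG_U34 chips A, B and C whose platform annotation names 1 of these genes and no other was taken, which gave, for these 10 of the 10969 genes so named on the chips, 24 probe sets (19 on chip A, 2 on chip B and 3 on chip C) of 26202 without controls. Of these, 17 were bright enough to be tested, among 15721 tested in all. Dcn had 5 tested probe sets of 5, Fn1 2 of 6, Tnc 2 of 4, Bgn 2 of 2, and Ccn1 1 of 2. Thbs4, Lum, Mgp, Fbln2 and Spp1 had 1 each, all tested.

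The 6 pools of total RNA were L5 ganglia of ligated rats at 50 and 28 days after injury, L4 ganglia of rats with the same L5 ligation at 50 and 28 days, and ganglia of sham-operated rats at 50 and 28 days. Sham ganglia of L4 and L5 were combined in 1 pool per day, so that no L5 pool of sham rats stands alone. Each pool held ganglia of 30 rats where the labels give the number, strain and age are not given, and each pool was put on 2 technical arrays of each chip type, 36 arrays in all. The 2 arrays of a pool show the error of the array and not that between rats, and the 2 pools of a condition differ in day.

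All arrays had a common level, with a mean, trimmed of 2% of the values at each end, between 150.07 and 150.21. The correlation between the 2 arrays of a pool lay between 0.88 and 0.96. The array of sham at 28 days on chip B with number 1 carries 28 days in its title and 50 in its description, and was used as 28 days. On chip A, array 2 of L4 at 50 days read far lower than array 1 for some of the 10 genes, at 44.4 against 235.4 for Bgn and 1297 against 3763.7 for Spp1. It was not low as a whole, with a median signal of 64.4 against 52 for array 1. Markers of sensory neurons were plain in all pools: the signals of 21 tested neuron genes summed to 60637 and 51445 in L5 at 50 and 28 days, and to 67910 and 59142 in sham. Pooled tissue cannot tell fewer cells of a type from less RNA per cell.

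Matrix glycoproteins such as fibronectin (Fn1), tenascin C (Tnc) and thrombospondin 4 (Thbs4) bind integrins and other receptors and link cells to the collagen network. Decorin (Dcn), lumican (Lum) and biglycan (Bgn) are small leucine-rich proteoglycans, which bind collagen fibrils and shape their assembly, and decorin and biglycan also bind growth factors of the TGF-beta family. In peripheral nerve and ganglia such proteins are made largely by fibroblasts and other connective tissue cells and by Schwann cells, and the matrix around injured nerve is remodelled. Thbs4 binds the calcium channel subunit encoded by Cacna2d1, the receptor of gabapentin, and has been linked to pain after nerve injury in rats.

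Promoter windows from RefSeq (build GRCr8; 250 bases before to 50 after the gene's start, 5′ to 3′ on the gene's strand) were at hand for 6 of the 10 genes: Thbs4, Ccn1, Fbln2, Tnc, Lum and Spp1. The 4 windows below are shown because Thbs4 and Lum carried calls between the days, the brighter Ccn1 probe set was higher in L5 than in sham on every array, and Fbln2 stood lower in L5. Capitals mark the TATA box core TATAAA and the GC box core GGGCGG on either strand (the GC box core reads CCGCCC on the other strand).
Thbs4, chr2:25760296-25760595, minus strand: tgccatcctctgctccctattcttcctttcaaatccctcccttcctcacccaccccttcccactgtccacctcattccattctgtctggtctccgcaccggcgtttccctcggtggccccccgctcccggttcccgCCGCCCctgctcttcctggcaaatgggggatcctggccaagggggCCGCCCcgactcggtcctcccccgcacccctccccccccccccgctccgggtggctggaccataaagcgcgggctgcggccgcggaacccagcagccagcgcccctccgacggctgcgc
Lum, chr7:34245456-34245755, plus strand: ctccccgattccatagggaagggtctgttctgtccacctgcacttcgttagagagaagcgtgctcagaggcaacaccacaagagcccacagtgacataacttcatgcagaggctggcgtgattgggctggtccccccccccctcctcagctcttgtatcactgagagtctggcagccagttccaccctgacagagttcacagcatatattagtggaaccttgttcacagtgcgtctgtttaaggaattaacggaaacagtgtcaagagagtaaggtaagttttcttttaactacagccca
Ccn1, chr2:237225640-237225939, minus strand: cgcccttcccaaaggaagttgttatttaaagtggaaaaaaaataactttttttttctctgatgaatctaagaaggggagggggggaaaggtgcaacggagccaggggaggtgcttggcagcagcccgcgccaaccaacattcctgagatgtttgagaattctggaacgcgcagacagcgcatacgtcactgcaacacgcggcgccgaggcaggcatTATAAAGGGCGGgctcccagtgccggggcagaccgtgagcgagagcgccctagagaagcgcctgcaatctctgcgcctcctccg
Fbln2, chr4:125261409-125261708, plus strand: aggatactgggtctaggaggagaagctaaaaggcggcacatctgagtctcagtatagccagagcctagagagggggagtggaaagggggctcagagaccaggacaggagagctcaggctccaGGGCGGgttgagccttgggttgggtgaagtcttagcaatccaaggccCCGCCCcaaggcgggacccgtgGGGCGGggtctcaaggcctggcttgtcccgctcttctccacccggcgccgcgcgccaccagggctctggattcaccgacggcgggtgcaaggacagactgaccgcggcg

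In the Ccn1 window the TATA and GC box cores stood side by side. Those of Thbs4 and Fbln2 held 2 and 3 GC box cores and no TATAAA, and that of Lum held neither. TATAAA was present in 3 of the 6 windows (Ccn1, Tnc and Spp1) and in 14.2% of all 33469 windows. Counted from the gene's start, the match began at -34 in Ccn1, at -208 in Tnc and at -204 in Spp1. GGGCGG was present in 4 of the 6 (Thbs4, Ccn1, Fbln2 and Tnc) and in 33.1% of all. Neither the AP-1 site TGANTCA (7.33% of all windows) nor the cAMP response element TGACGTCA (1.83%) was found on either strand in any of the 6. No match of one motif overlapped one of another, and a match of letters is no proof of a bound site.

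**Figure D1:**
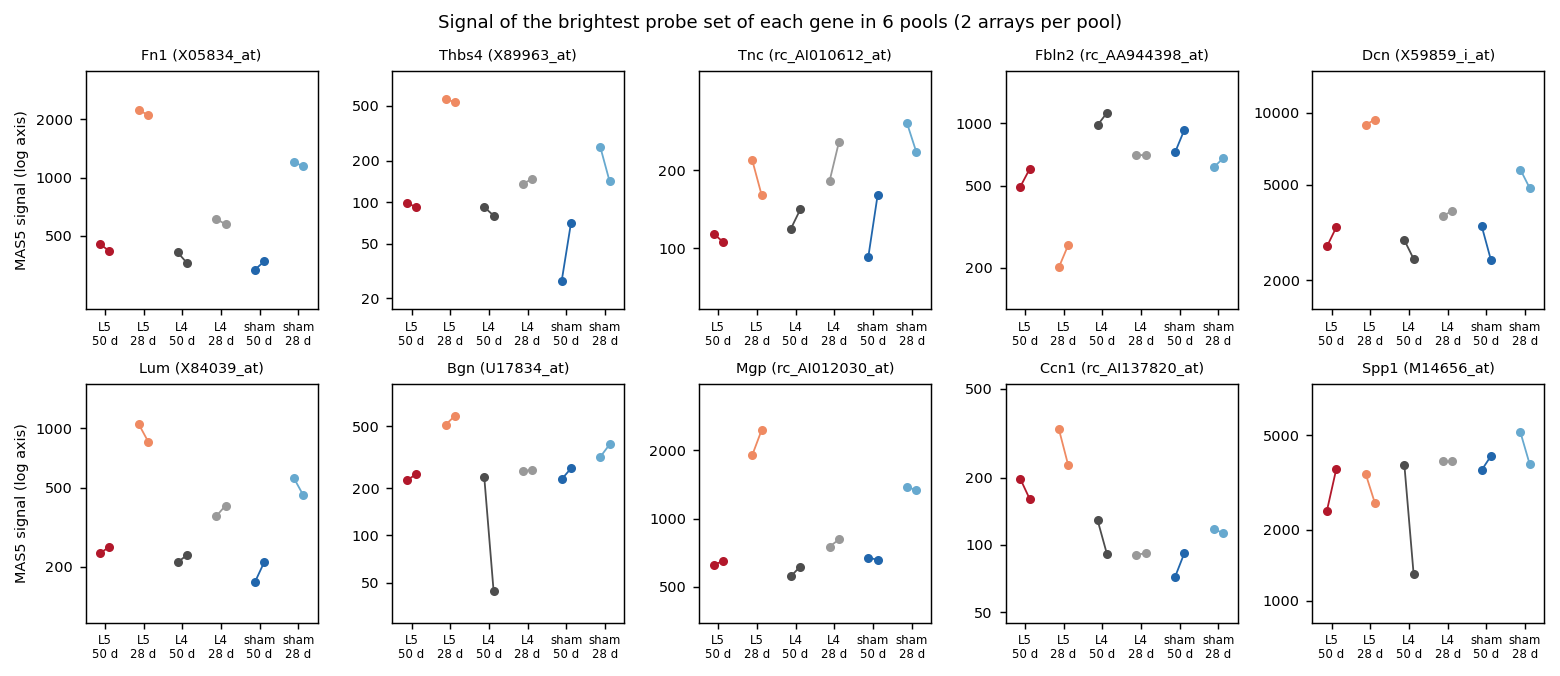
Signal of the brightest probe set of each of the 10 genes (y axis, deposited MAS5 signal on a log axis) in the 6 pools (x axis), with a point for each of the 2 arrays of a pool joined by a line. For Fn1, Thbs4, Lum, Dcn, Bgn, Mgp and Ccn1 both arrays of L5 at 28 days lie above all others, and for Fbln2 they lie below all others.

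Fibronectin 1 (Fn1), the main cell-binding glycoprotein of provisional matrix, gave 2 tested probe sets that went opposite ways between the days. On the bright one, X05834_at, L5 had signals of 452.9 and 417.4 at 50 days and 2228.3 and 2103.5 at 28 days. L4 had 411.9 and 363.2 at 50 days and 613.4 and 573.5 at 28 days. Sham had 335 and 370.2 at 50 days and 1205.1 and 1144.1 at 28 days. Both L5 arrays were thus above both sham arrays at each day, and in each condition the arrays of 50 days were below those of 28 days. L4 lay between L5 and sham at 50 days, with arrays that overlapped sham, and below both at 28 days.

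The L5 minus sham difference of X05834_at was 0.59 ± 0.30 on the log2 scale (moderated SE of the limma fit, n = 2 pools per condition), 1.5-fold, which missed the threshold (limma adjusted p = 0.354). It was 0.29 at 50 days and 0.88 at 28 days. The difference of 50 minus 28 days was -1.53 ± 0.25 (3 pools per day, limma adjusted p = 0.0269), and Fn1 fell on this probe set in the later pools. Without array 2 of L4 at 50 days it was -1.50 and missed the threshold (limma adjusted p = 0.0902). The threshold was also missed without a filter, without an intensity trend, with quantile normalization and with array 1 or array 2 of each pool alone.

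On the dim Fn1 probe set U82612cds_at, L5 had 175.2 and 132 at 50 days and 64.5 and 87.9 at 28 days. L4 had 70.7 and 112.3 at 50 days and 45.1 and 33.6 at 28 days. Sham had 21.4 and 77.8 at 50 days and 11 and 11.5 at 28 days. Here the L5 arrays were again above the sham arrays at each day, but the arrays of 50 days were above those of 28 days in all 3 conditions.

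U82612cds_at was the 1 of the 17 tested probe sets called in L5 against sham. It rose by 1.72 ± 0.33, 3.30-fold (limma adjusted p = 0.0437), with 1.57 at 50 days and 1.88 at 28 days. Its sham signals of 28 days, 11 and 11.5, were under the pseudocount of 12.8 that was added before log2. The 2 sham arrays of 50 days differed by 1.41 on the log2 scale. At 50 days the difference was 2.46 from array 1 alone and 0.68 from array 2 alone. The call was lost without the low L4 array of 50 days (adjusted p = 0.0634), when the sham pool of 50 days was left out (0.0808) and when that of 28 days was (0.155), at differences of 1.72, 1.86 and 1.59. It was also lost with a pseudocount of 1, without a filter, with quantile normalization and with array 1 or array 2 of each pool alone. Over all tested probe sets, 0.782% were called in this comparison. Its 50 minus 28 days difference was 1.03 ± 0.27 (adjusted p = 0.121), against -1.53 for X05834_at.

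The other 4 Fn1 probe sets were below the filter on dim signals and had no test. Their signals ranged from 17.9 to 68.5 for rc_AI102830_at, from 6.8 to 48.8 for U82612cds_g_at, from 5.9 to 45.6 for X05831cds_at and from 3.7 to 25.9 for M28259cds_at. L5 minus sham was between 0.38 and 0.62 on all 4. All 6 Fn1 probe sets were thus above 0 in L5 against sham, while between the days 2 were below 0 and 4 above. Of the dim 4, U82612cds_g_at had L5 and sham arrays that overlapped at both days, and X05831cds_at at 28 days. The 28-day difference of X05831cds_at was 1.48 from array 1 alone and -1.10 from array 2 alone. On rc_AI102830_at and M28259cds_at the arrays did not overlap at either day.

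**Figure D2:**
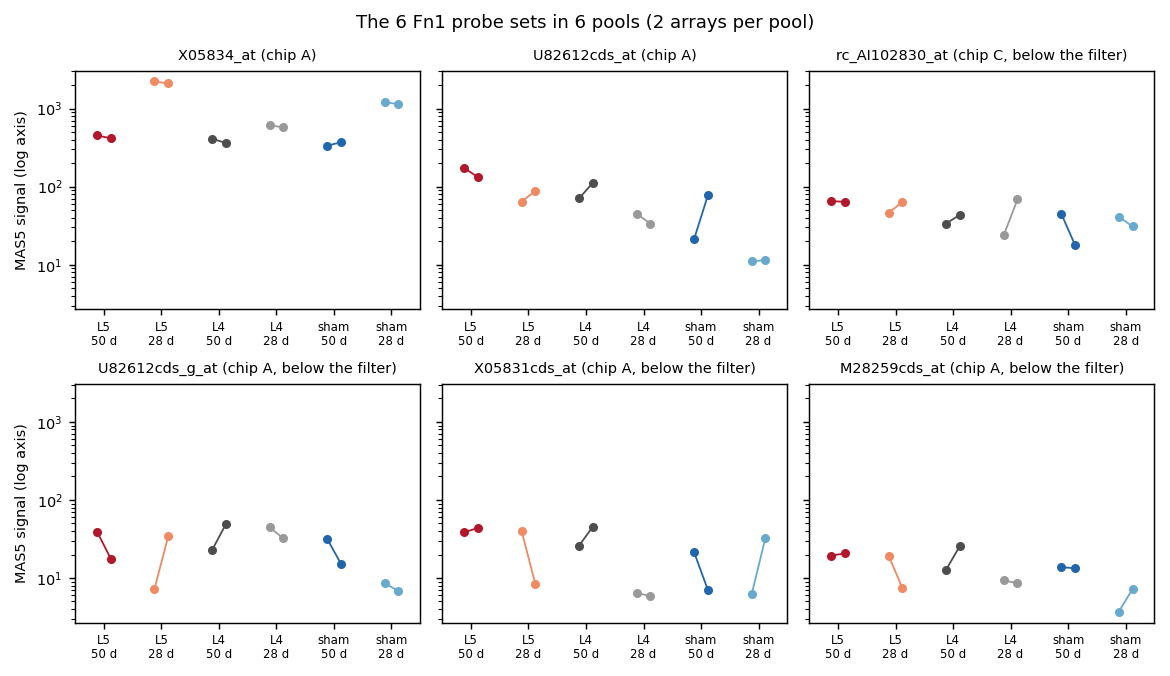
The 6 Fn1 probe sets on a shared log axis of MAS5 signal, with the 6 pools on the x axis and a point for each of the 2 arrays of a pool. X05834_at runs from 335 to 2228.3 and is higher at 28 days, U82612cds_at runs from 11 to 175.2 and is higher at 50 days, and the other 4 stay at or below 68.5.

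Thrombospondin 4 (Thbs4) had higher signals in L5 than in sham and lower signals at 50 than at 28 days. Its probe set X89963_at had 99.3 and 91.5 in L5 at 50 days and 563 and 529.9 at 28 days. In L4 the signals were 92 and 79.9 at 50 days and 135.8 and 147.5 at 28 days, and in sham 26.7 and 70.3 at 50 days and 250.5 and 141.3 at 28 days. The L5 and sham arrays did not overlap at either day, although the 2 sham arrays of 50 days differed by 1.07 on the log2 scale.

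For Thbs4 the L5 minus sham difference was 1.19 ± 0.35, 2.29-fold, with limma adjusted p = 0.125. It was 0.92 at 50 days and 1.47 at 28 days. Thbs4 fell by 1.61 ± 0.28 at 50 days against 28 days (limma adjusted p = 0.0455), with differences of -2.37 in L5, -0.65 in L4 and -1.81 in sham. This call was lost without array 2 of L4 at 50 days (-1.58, limma adjusted p = 0.102). It was also lost without a filter (0.109), without an intensity trend (0.197) and with a pseudocount at the 40th percentile (0.0536). Quantile normalization (0.121) and array 1 (0.186) or array 2 (0.246) of each pool alone lost it too. Cacna2d1, whose product binds thrombospondins, stood at 0.90 ± 0.22 in L5 against sham (adjusted p = 0.0785), with 0.45 at 50 days and 1.35 at 28 days.

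Tenascin C (Tnc), an anti-adhesive matrix glycoprotein, had 2 tested probe sets that disagreed in both comparisons. On rc_AI010612_at, L5 had 113.6 and 105.8 at 50 days and 219 and 160.9 at 28 days, L4 had 119 and 141.1 and then 182.5 and 257.8, and sham had 92.6 and 160.5 and then 304.9 and 235.7. On U09361_s_at, L5 had 257.1 and 165.6 at 50 days and 62.3 and 212.8 at 28 days, L4 had 94.3 and 168.1 and then 81.9 and 136.6, and sham had 173.3 and 141 and then 39.6 and 28.6. At 28 days both L5 arrays were below both sham arrays on the first and above them on the second.

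In L5 against sham the differences were -0.31 ± 0.20 for rc_AI010612_at (adjusted p = 0.474) and 0.93 ± 0.35 for U09361_s_at (adjusted p = 0.21). The 50 minus 28 days differences were -0.80 ± 0.16 (adjusted p = 0.103) and 0.95 ± 0.28 (adjusted p = 0.147). None passed. The 2 arrays of L5 at 28 days differed by 1.59 on U09361_s_at, the largest gap within a pool for that probe set. The remaining Tnc probe sets, U15550_at and U09401_s_at, stayed below the filter, with signals up to 43.1 and 6.8.

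Fibulin 2 (Fbln2), a glycoprotein that bridges basement membrane and elastic fibre proteins, had lower signals in L5 than in L4 and sham. Its probe set rc_AA944398_at had 493.3 and 600.6 in L5 at 50 days and 201.8 and 258 at 28 days. L4 had 982.3 and 1124.9 at 50 days and 704.9 and 700.5 at 28 days, and sham had 723.6 and 929.7 at 50 days and 612.6 and 677.5 at 28 days. The L5 arrays lay below all sham and all L4 arrays at both days, and this was the 1 of the 24 probe sets below sham on all arrays at each day, against 7.93% of all probe sets.

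Fbln2 fell in L5 against L4 by 1.24 ± 0.22 on the log2 scale, to 0.424 of the L4 level (limma adjusted p = 0.0404), with -0.93 at 50 days and -1.55 at 28 days. It was the 1 member called in that comparison, in which 1.29% of all tested probe sets were called. The call passed in 12 of 21 alternatives. It was lost, at the same difference, when the sham array with conflicting days was left out (limma adjusted p = 0.0505). Fits with no filter (0.0765), no intensity trend (0.144) and no day term (0.319) also lost it. So did quantile normalization (0.0792) and array 1 (0.140) or array 2 (0.128) of each pool alone. With the 28-day ganglia as the only L4 pool the difference was -1.34, and with the 50-day ganglia it was -1.14. Neither of these fits kept the call. Against sham the difference was -1.002 ± 0.218 (adjusted p = 0.0758), with -0.58 at 50 days and -1.43 at 28 days. L4 minus sham was 0.24 ± 0.22 (adjusted p = 0.999).

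**Figure D3:**
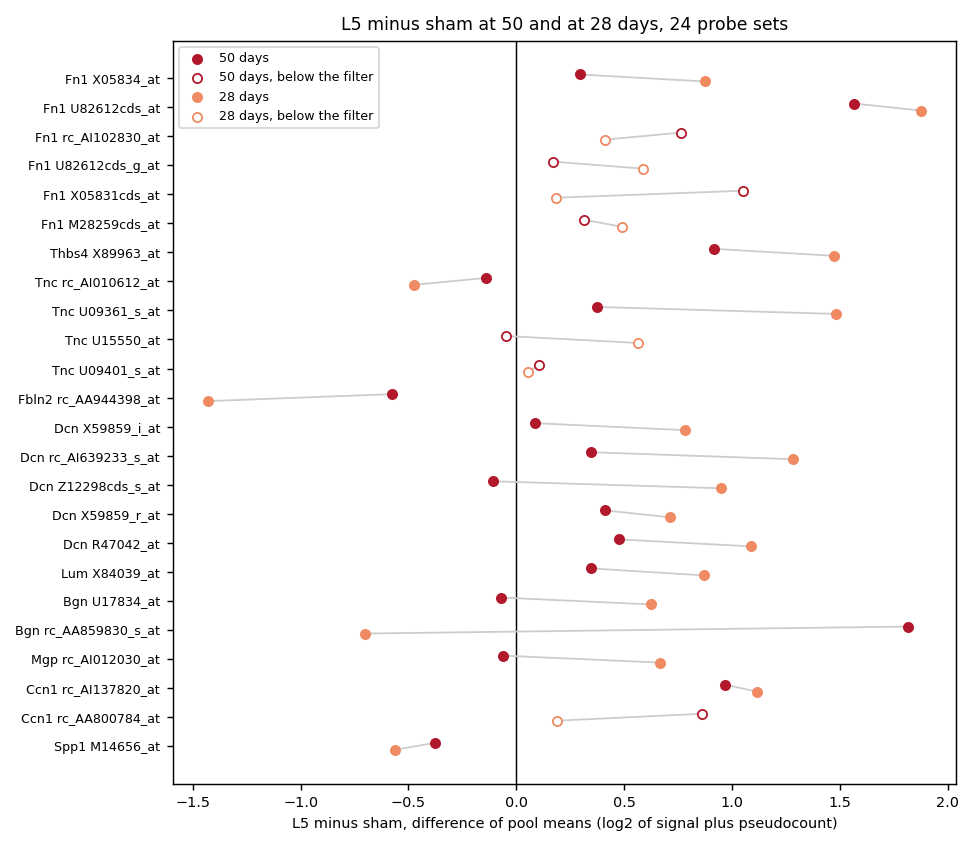
L5 minus sham at 50 days (dark) and at 28 days (light) for the 24 probe sets, as differences of pool means on the log2 scale (x axis); open points are probe sets below the filter on dim signals. Most points lie right of 0, and Fbln2, Spp1 and the Tnc probe set rc_AI010612_at lie left of it at both days.

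Decorin (Dcn), the small leucine-rich proteoglycan that decorates collagen fibrils, had 5 probe sets, all tested. X59859_i_at, the brightest, had 2770.8 and 3328.9 in L5 at 50 days and 8909.6 and 9373.1 at 28 days. L4 had 2943.1 and 2457.8 at 50 days and 3716.2 and 3899.4 at 28 days, and sham had 3366.8 and 2425.3 at 50 days and 5793.2 and 4855.5 at 28 days. L5 and sham overlapped at 50 days, and L5 was above sham at 28 days.

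On X59859_i_at the difference of L5 minus sham was 0.44 ± 0.24 (limma adjusted p = 0.385), with 0.09 at 50 days and 0.78 at 28 days. The other 4 Dcn probe sets gave between 0.42 and 0.82, and none passed. At 28 days all 5 had both L5 arrays above both sham arrays, with differences between 0.72 and 1.28. The 1.28 of rc_AI639233_s_at is uncertain: L5 had 3511.2 and 1594.5 and sham 633.9 and 1466.6, and the difference was 2.45 from array 1 alone and 0.12 from array 2 alone. At 50 days rc_AI639233_s_at (0.35) and R47042_at (0.48) were above sham on both arrays, Z12298cds_s_at (-0.11) was below, and the other 2 overlapped.

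Dcn between the days stood at -0.99 ± 0.20 on X59859_i_at (limma adjusted p = 0.0719) and at -1.14 ± 0.21 on Z12298cds_s_at (adjusted p = 0.0553). The remaining 3 were between -0.35 and -0.14. The arrays of a pool differed by up to 1.42 on X59859_r_at and 1.19 on rc_AI639233_s_at.

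Lumican (Lum), whose gene is the next protein-coding gene to Dcn on chromosome 7 in the RefSeq gene table, followed the same pools. X84039_at had 234.4 and 253.2 in L5 at 50 days and 1044.2 and 855.5 at 28 days, 211.1 and 229.2 in L4 at 50 days and 360.4 and 407.8 at 28 days, and 167.9 and 211.7 in sham at 50 days and 563.1 and 462.7 at 28 days. L5 was above sham at both days, and 50 days below 28 days in all 3 conditions, with no overlap.

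Lum fell by 1.35 ± 0.20 at 50 against 28 days (limma adjusted p = 0.0189), with -1.90 in L5, -0.77 in L4 and -1.38 in sham. Without array 2 of L4 at 50 days the value was -1.37 and the call was kept (limma adjusted p = 0.0432). The call passed in 16 of 20 alternatives. It was lost with quantile normalization (limma adjusted p = 0.0782), without an intensity trend (0.197), and with array 1 (0.0989) or array 2 (0.145) alone. Against sham, L5 stood at 0.61 ± 0.25 (adjusted p = 0.241), with 0.35 at 50 days and 0.87 at 28 days.

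Biglycan (Bgn), a relative of decorin, had 2 tested probe sets. U17834_at had 225 and 247 in L5 at 50 days and 510.4 and 582.5 at 28 days, 235.4 and 44.4 in L4 at 50 days and 257 and 264.2 at 28 days, and 228.9 and 268.5 in sham at 50 days and 318.7 and 382.3 at 28 days. L5 and sham overlapped at 50 days, and L5 was above sham and L4 at 28 days. The fitted L5 minus sham difference was 0.28 ± 0.23 (adjusted p = 0.563).

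L5 minus L4 was 1.05 ± 0.23 on U17834_at (adjusted p = 0.0517), but the part from 50 days rests on the L4 array of 44.4, and the arrays of L5 and L4 overlapped there. Without it the difference was 0.52 (adjusted p = 0.296). The second Bgn probe set, rc_AA859830_s_at, ranged from 11.6 to 144.3. Its L5 minus sham difference was 1.81 at 50 days and -0.70 at 28 days, and its fitted value 0.56 ± 0.51 did not pass (adjusted p = 0.605).

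Matrix Gla protein (Mgp), an inhibitor of calcification in vessels and cartilage, had 626 and 649.2 in L5 at 50 days and 1905.7 and 2450.1 at 28 days on rc_AI012030_at. L4 had 557.6 and 615.2 at 50 days and 753 and 809.3 at 28 days, and sham had 674 and 657.7 at 50 days and 1384.9 and 1330.3 at 28 days. L5 was slightly below sham at 50 days and above it at 28 days, without overlap in either. Its fitted difference was 0.30 ± 0.26 (adjusted p = 0.574), and that of 50 minus 28 days was -1.05 ± 0.21 (adjusted p = 0.0739).

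Ccn1, a secreted matricellular protein that binds integrins and is induced by growth factors, had, among the brightest probe sets of the 10 genes, the closest values of L5 minus sham at the 2 days. On rc_AI137820_at, L5 had 197.8 and 161.1 at 50 days and 329 and 227.2 at 28 days, L4 had 128.7 and 91 and then 90.3 and 91.8, and sham had 71.8 and 91.8 and then 118.2 and 112.7. Every L5 array was above every L4 and sham array. L5 minus sham was 1.04 ± 0.25, 2.06-fold (adjusted p = 0.0841), with 0.97 at 50 days and 1.12 at 28 days. L5 minus L4 was 1.01 ± 0.25 (adjusted p = 0.0794). The second Ccn1 probe set, rc_AA800784_at, was below the filter, with signals from 7.8 to 63.7. Its L5 minus sham difference was 0.86 at 50 days and 0.19 at 28 days, with arrays that overlapped at each day.

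Osteopontin (Spp1), a secreted phosphoprotein that binds integrins and CD44 and is made by many sensory neurons, had 2409.6 and 3603.9 in L5 at 50 days and 3441.2 and 2586.8 at 28 days on M14656_at. L4 had 3763.7 and 1297 at 50 days and 3881.7 and 3881.9 at 28 days, and sham had 3571.8 and 4100.1 at 50 days and 5157.4 and 3779.6 at 28 days. L5 overlapped sham at 50 days and was below it at 28 days. L5 minus sham was -0.47 ± 0.21 (adjusted p = 0.293). It was 1 of 3 tested probe sets with a difference below 0 in this comparison, with Fbln2 and rc_AI010612_at of Tnc.

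Counted over the 17 tested probe sets, 1 was called higher and 0 lower in L5 against sham by the limma fit. At an unadjusted p under 0.05, 8 were higher, against 7.42% of all tested probe sets, and 2 lower, against 9.47%. Over all 24, the difference was above 0 for 21, with a median of 0.54 against 0.077 over all probe sets. By day it was above 0 for 17 of 24 at 50 days and 20 of 24 at 28 days, with medians of 0.33 and 0.65, but 15 of the 24 belong to Fn1, Dcn and Tnc. With each gene taken by its brightest probe set, 5 of 10 genes were above 0 at 50 days, with a median of 0.013, and 7 of 10 at 28 days, with a median of 0.72. The scale matters for the size: with arrays scaled to the spiked hybridisation controls, the median of all tested probe sets moved to -0.43 and that of the 24 to 0.10, and X59859_i_at and Z12298cds_s_at of Dcn, U17834_at of Bgn and Mgp turned below 0.

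Both L5 arrays lay above both sham arrays for 11 of the 24 probe sets at 50 days, against 29.8% of all probe sets, and below them for 3, against 19.1%. At 28 days they lay above for 15, against 24.3%, and below for 3, against 20.4%. At both days they lay above for 9 of the 24: Fn1 on X05834_at, U82612cds_at, rc_AI102830_at and M28259cds_at, Thbs4, Lum, Dcn on rc_AI639233_s_at and R47042_at, and Ccn1 on rc_AI137820_at. The share over all probe sets was 9.11%. Probe sets of 1 gene share transcripts, so these counts are not of independent items. The genes were also chosen with earlier results of these data known.

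L4 stood apart from sham on no member by the fit: 0 of 17 were called, as were 0% of all tested probe sets, with 426 of them at an unadjusted p under 0.05. At that unadjusted level 1 member was higher (U82612cds_at of Fn1, 0.99), against 1.54% of all, and 2 were lower (U17834_at of Bgn, -0.77, and Spp1, -0.49), against 1.17%, and without the low array of 50 days these 2 stood at -0.24 and -0.10. At 28 days both L4 arrays were below both sham arrays for 9 of the 24 probe sets, against 22.1% of all, and above for 7, against 18.3%. Fn1 on X05834_at (-0.97), Mgp (-0.79), Dcn on X59859_i_at (-0.48) and Lum (-0.40) were among those below. Above were U82612cds_at (1.11), U82612cds_g_at (1.31) and M28259cds_at (0.26) of Fn1, and U09361_s_at (1.35) and U09401_s_at (0.20) of Tnc. R47042_at of Dcn (0.54) and Fbln2 (0.12) were also above, so the probe sets of Fn1 and those of Dcn split. All comparisons with sham share its pools, as those with L5 and L4 share theirs.

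Between the days more members were called than in the other comparisons. Over all tested probe sets the calls were fewer than in L5 against sham and L5 against L4, at 45 against 123 and 203. Of the 17 tested probe sets, 3 fell at 50 against 28 days (Lum, X05834_at of Fn1 and Thbs4) and 0 rose, where 0.286% of all tested probe sets were called. At an unadjusted p under 0.05, 8 were lower, against 8.94% of all, and 3 higher, against 9.76%. Both arrays of 50 days were below both of 28 days in each of the 3 conditions for 8 of the 24 probe sets, against 3.5% of all: X05834_at of Fn1, Thbs4, rc_AI010612_at of Tnc, Lum, X59859_i_at and Z12298cds_s_at of Dcn, U17834_at of Bgn, and Mgp. In L5 these 8 differed by -0.69 to -2.37, in L4 by -0.41 to -1.20 and in sham by -0.47 to -1.81. The -1.20, of U17834_at, rests on the low L4 array and was -0.14 with array 1 of that pool alone, and the other 7 ended at -0.77 in L4. Fbln2 had its arrays of 50 days above those of 28 days in all 3 conditions, at 1.19 in L5, 0.57 in L4 and 0.34 in sham (fitted 0.70 ± 0.18, adjusted p = 0.132). The pools of the 2 days came from different rats, so day, surgery and collection of the pools cannot be told apart.

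**Figure D4:**
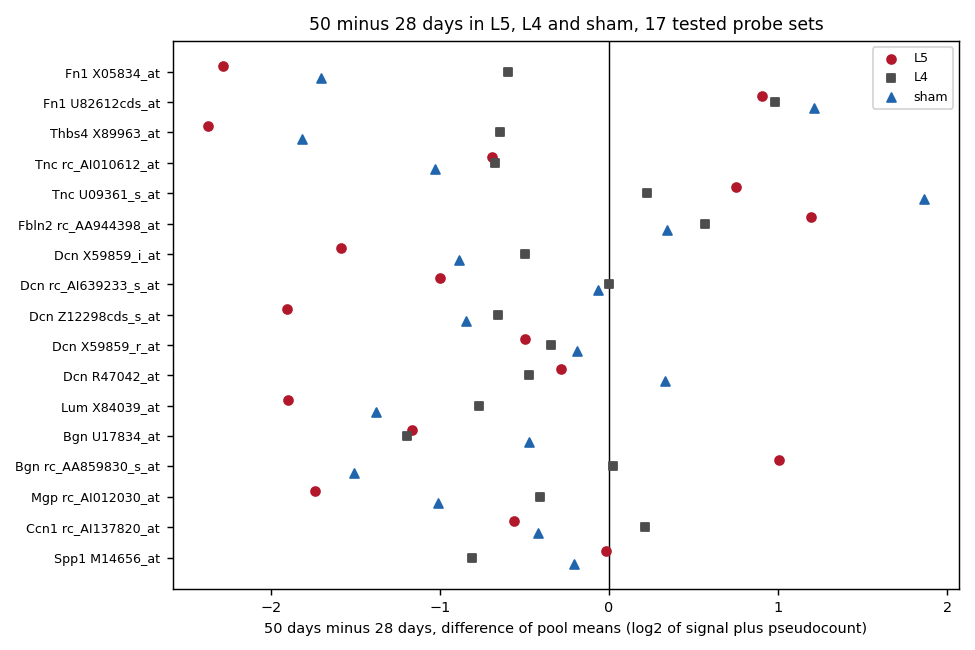
50 minus 28 days in L5 (circles), L4 (squares) and sham (triangles) for the 17 tested probe sets, as differences of pool means on the log2 scale (x axis). Fn1 X05834_at, Thbs4, Lum and Mgp lie left of 0 in all 3 conditions and farthest in L5, while Fn1 U82612cds_at, Tnc U09361_s_at and Fbln2 lie right of 0.

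The brightest probe sets of Fn1, Thbs4, Lum, Dcn and Mgp ran together over the 6 pool means, with r between 0.92 and 0.99 for each pair, as a description of 6 points that share pools and scaling. Fbln2 ran against them, with r between -0.83 and -0.88. Spp1 had r between 0.02 and 0.27 with these 5. Among the 3349 probe sets that ranged over at least 1 log2 unit, the nearest to X05834_at of Fn1 were Ogn (r = 0.997), which encodes the small proteoglycan osteoglycin, Fndc1 (0.997) and Sertad1 (0.996).

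The nearest to Dcn were Col1a2 (0.996), a chain of type I collagen, Ogn (0.994) and Fn1 itself (0.991). Thbs4 was nearest to Matn2 (0.996), which encodes a matrilin, Col5a2 (0.994) and Fndc3a (0.992), and Mgp to Ptpro (0.996), Ackr3 (0.994) and Ogn (0.994). Lum had Pnisr (0.991), Mier1 (0.989) and Col1a2 (0.989). Ccn1 had Smoc2 (0.996), Csrp2 (0.995) and the muscle myosin light chain Myl1 (0.989). Fbln2 had Bag3 (0.998), Klc2 (0.997) and Susd4 (0.997), Bgn had Lhfpl2 (0.977), Grk5 (0.976) and Lhfpl6 (0.975), and Tnc had Gpsm2 (0.972), Klhl13 (0.951) and Rnf115 (0.937). The range and r of Bgn rest in part on the L4 array of 50 days with a signal of 44.4, its lowest. Spp1 ranged over 0.99 and was not searched.

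Other matrix genes, each taken by its brightest tested probe set, had fitted medians above 0 that were smaller than that of the 10 genes. None was called in L5 against sham. The 10 genes and the lists were chosen with earlier results of these data known, so the order of their medians is a description only. At 50 days that order did not hold, with medians of 0.01 for the 10 genes, against -0.09 for other glycoproteins, 0.06 for other proteoglycans and 0.18 for receptors. Of 36 tested other matrix glycoproteins (68 listed), 0 passed; the median was 0.37 for the 10 genes taken the same way and 0.17 for these. Tgfbi (0.99 ± 0.21, adjusted p = 0.0592) and Nid1 (0.89 ± 0.22, adjusted p = 0.0932) had the lowest p, followed by Spock2 (-0.67) and Fbln5 (-0.58), a relative of Fbln2. Of 24 other proteoglycans (37 listed), 0 passed and the median was 0.20. The lowest p were those of Gpc5 (-0.84), Sdc4 (0.48), Tgfbr3 (0.88) and Sdc3 (0.36), with adjusted p between 0.164 and 0.362. Of 19 tested receptors of matrix proteins (30 listed), 0 passed and the median was 0.22, with Cacna2d1 first, then Dag1 (-0.58), Ddr2 (0.79) and Sdc4.

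Between the days, 0 of the other glycoproteins were called, 1 proteoglycan, the syndecan Sdc2, fell (-0.92 ± 0.14, adjusted p = 0.0455), and 1 receptor gene, the integrin subunit gene Itga6, fell (-0.89 ± 0.15, adjusted p = 0.0478).

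Signals of other cell types' markers also differed between the pools. Of 27 fibroblast markers, 22 were tested and 0 called in L5 against sham, with a median of 0.35 (0.25 at 50 days and 0.39 at 28 days) and summed signals of 26904 and 41007 in L5 at 50 and 28 days, against 23536 and 31687 in sham. The L4 sums were 23889 and 25972. The lowest p were those of the collagen gene Col5a2 (0.92 ± 0.23, adjusted p = 0.0924), S100a4 (0.81), the collagen cross-linking enzyme gene Lox (0.48) and Igfbp4 (0.48), none of which passed. Between the days 2 of these 22 fell, the collagen genes Col3a1 (-1.56 ± 0.20, adjusted p = 0.00918) and Col5a2 (-1.09 ± 0.19, adjusted p = 0.0454). Their part in the results of the 10 genes was not tested.

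Of 25 macrophage markers, 17 were tested and 0 called in L5 against sham. The median was 0.61 (0.09 at 50 days and 1.07 at 28 days), with 11 of 17 above 0 at 50 days and 17 of 17 at 28 days, and the summed signals were 3034 and 7645 in L5 at 50 and 28 days against 2841 and 3027 in sham. The Fc receptor chain gene Fcer1g stood at 0.97 ± 0.21 (adjusted p = 0.0711), Cd4 at 1.12, the lysosomal protease gene Ctss at 0.997 and the complement gene C1qa at 0.86. Of 30 skeletal muscle markers, 21 were tested and 1 rose, Tpm2 (1.16 ± 0.21, adjusted p = 0.0449). Their median was 0.93 (0.34 at 50 days and 1.44 at 28 days), and they summed to 5651 and 8536 in L5 against 4575 and 3178 in sham.

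Of 18 blood cell markers, 9 were tested, 0 were called in L5 against sham and 4 fell between the days, the globin genes Hbb (-2.05 ± 0.17, adjusted p = 0.000358), Hbb-b1 (-1.89) and Hbb-bs (-1.62), and S100a9 (-2.03). They summed to 4638 and 13015 in L5 at 50 and 28 days, to 4434 and 11386 in L4 and to 5338 and 9522 in sham. No tested marker of these lists was at 0 on any array, with lowest signals of 32.6 for fibroblast (Mfap5), 7 for macrophage (Cd4), 5 for muscle (Myh7) and 8.2 for blood markers (S100a9). The part of these cells in the results was not tested.

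Markers of Schwann cells (16 tested of 20, median 0.04), satellite glia (8 of 16, -0.18) and vessels (13 of 18, -0.05) had no member called in L5 against sham. Of 21 tested neuron markers (25 listed) 2 fell, the sodium channel genes Scn11a (-1.38) and Scn10a (-1.34). Of 18 tested axon injury markers (20 listed) 4 rose, Vip (2.72), Npy (2.03), Atf3 (1.52) and Gal (1.50).

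**Figure D5:**
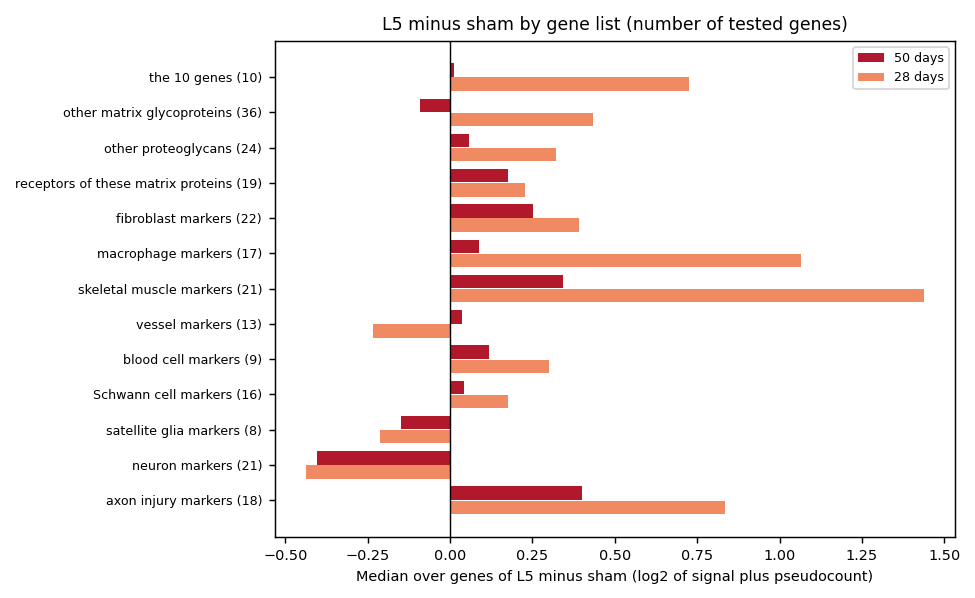
Median over genes of L5 minus sham at 50 days (dark) and at 28 days (light) for the 10 genes and 12 other lists, on the log2 scale (x axis, bars from 0), with the number of tested genes in brackets. The 10 genes have 0.01 at 50 days and 0.72 at 28 days, and the macrophage and skeletal muscle markers have 1.07 and 1.44 at 28 days.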

How the data were processed

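Total RNA of 6 pools was measured on Affymetrix RG_U34 A, B and C chips, 2 technical arrays per pool and chip. The deposited values are MAS5 intensity signals on a linear scale, per the submitters' processing notes; no MAS5 version was given in the sources used here. Gene names came from the platform annotation; all 10 symbols were in the RefSeq table. Signals were brought to a common trimmed mean, a pseudocount was added (the 20th percentile of a chip type: 12.8, 17.7 and 20.2 on A, B and C) and log2 was taken, which understates the change of dim probe sets. Probe sets with a mean under the 40th percentile of their chip were not tested. Arrays of a pool were averaged, and condition and day were fitted with limma 3.58.1 in R 4.3.3 (intensity trend, 2 residual degrees of freedom), with Benjamini-Hochberg adjustment over all 15721 probe sets and a threshold of 0.05. The error of this fit is the departure of the 2 days from a common difference. No condition had a replicate pool at a day, so this error cannot tell spread between pools from a difference that changes with the day. Values after ± are SE from this fit of all pools, moderated by limma toward the intensity trend of the chip type. Values for a single day are plain differences of pool means. The day comparison and the fit without array 2 of L4 at 50 days on chip A were added after seeing the values. All 24 probe sets are named. Genes of other lists are taken by their brightest tested probe set, and those called in L5 against sham, or else the up to 4 with the lowest p, are named; genes called between the days were named after their values were seen. The members and lists were chosen with earlier results of these data known. The fit was tested on simulated data; alternatives are in the closing section. The number of pools limits the precision.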

Additional observations from a re-analysis of the deposited data

Results flagged for a closer look

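For 2 probe sets both arrays of L5 lay below sham at 50 days and above it at 28 days. The Mgp difference was -0.061 at 50 days and 0.67 at 28 days, and that of Z12298cds_s_at of Dcn was -0.11 at 50 days and 0.95 at 28 days. Such opposite days in L5 against sham occurred for 6.1% of all probe sets. In L4 against sham, where 7.66% of all probe sets did so, rc_AA859830_s_at of Bgn was at 1.06 at 50 days and -0.48 at 28 days, and R47042_at of Dcn at -0.26 at 50 days and 0.54 at 28 days. The days of R47042_at also ran opposite ways between conditions, with 50 minus 28 days at -0.28 in L5 and -0.47 in L4, against 0.33 in sham. In each of these 6 cases the difference was not tested.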

How the results depend on the processing

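The counts of calls depended on the processing. Main counts for L5 against sham, L5 against L4 and 50 against 28 days, in this order below, were 123, 203 and 45, with 1, 1 and 3 of the 17 member probe sets, and 0 with 0 for L4 against sham. Members called are in brackets. Without a filter the counts were 31 (0), 19 (0) and 23 (1), with a filter at the 60th percentile 153 (0), 217 (2) and 52 (3), and a pseudocount of 1 left 0 members in L5 against sham. Quantile normalization gave 42 (0), 53 (0) and 15 (0), median centring 516 (2), 802 (1) and 110 (8), and scaling to hybridisation controls 2873 (4), 6710 (2) and 277 (8), with 4 (0) for L4 against sham. Of the calls in L5 against sham, 37 were higher and 86 lower, against 35 and 2838 with hybridisation controls, 49 and 467 with median centring and 17 and 25 with quantile normalization. Without an intensity trend they were 4 (0), 0 (0) and 0 (0), without a day term 0 (0) and 0 (0), with array 1 alone 1 (0), 1 (0) and 2 (0), and with array 2 alone 2 (0), 0 (0) and 5 (0). With all 12 arrays and a random term for the pool they were 1113 (5), 1380 (7) and 1026 (9), with 1 (0) for L4 against sham, but this fit treats technical arrays as samples. The array number added as a replicate block gave 970 (4), 1174 (5) and 791 (9), and 0 (0) for L4 against sham; arrays of the same number did not deviate together (r between pools of the array difference from -0.102 to 0.107). Leaving out a pool or 1 array gave 31 to 621 (0 to 10), 112 to 790 (0 to 10), 27 to 454 (1 to 8) and, for L4 against sham, 0 to 10 (0 to 1). Without array 2 of L4 at 50 days on chip A they were 43 (0), 152 (1) and 27 (1). In L5 against sham each pool mattered, with counts of 621 and 478 without L5 at 50 and 28 days, 453 and 450 without L4, and 77 and 31 without sham. In L5 against L4 they were 790 and 640 without L5, 222 and 112 without L4, and 270 and 284 without sham.

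The sign was kept under all alternatives run by 12 of the 17 in L5 against sham (21 alternatives) and by 15 between the days (20). It was kept by only 9 of the 17 in L5 against L4 and by only 4 in L4 against sham (21 alternatives each). In L5 against sham the signs that turned, all below the threshold, were those of Mgp (-0.20), U17834_at (-0.21), X59859_i_at (-0.075) and Z12298cds_s_at (-0.075) with hybridisation controls, rc_AA859830_s_at with array 2 alone (-0.025), and 5 with a pool left out. Over the pools left out, Mgp ranged from -0.21 (without L5 at 28 days) to 0.82, X59859_i_at from -0.0098 (without L5 at 28 days) to 0.88, Z12298cds_s_at from -0.15 (without L5 at 28 days) to 0.998, U17834_at from -0.077 (without sham at 28 days) to 0.63, and rc_AA859830_s_at from -0.46 (without sham at 50 days; -0.32 without L5 at 50 days) to 1.57. Between the days rc_AA859830_s_at turned with array 1 alone (0.10) and without either sham pool (0.52, lowest -0.74 without either L5 pool), and R47042_at without either L4 pool (0.022, lowest -0.38 without either sham pool). The cause was not tested.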
